A study of Homo sapiens with 4 samples.

Results

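The genes described here were 10 human genes grouped under the integrated stress response. These were ATF4, ATF3, DDIT3, XBP1, PPP1R15A, TRIB3, CHAC1, DDIT4, SESN2 and ASNS. They were named by symbol with earlier results of these data known, and each was looked up by its Ensembl identifier in the GO tables of B vs. A and of D vs. C. A gene counted as listed when its identifier stood under at least 1 GO term of a table. The authors had called the mRNA of such a gene differentially expressed at an adjusted p-value under 0.05. A called gene without a GO term would not be listed, and the paper reports more called mRNA genes in each comparison than are listed here. The 10 genes were part of a GO background of 22148 genes, of which 6871 were listed in either comparison and 2281 in both.

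Group A was HepG2 cells and group C was Huh7 cells before treatment, and groups B and D held the same lines after it. Both are established human liver cancer lines, which the labels call hepatocellular carcinoma. The treatment was sonodynamic therapy (SDT), in which low-frequency ultrasound acts on a sensitizer that the cells have taken up. The sensitizer hematoporphyrin monomethyl ether (HMME) was carried together with lonidamine (LND), an inhibitor of tumor energy metabolism, in targeted nanobubbles filled with C3F8. The treatment thus combined ultrasound, sensitizer, drug and bubble, and no group that received only some of these was analysed here. Ribosomal RNA was removed from the total RNA before sequencing, with 1 library per group, so no value below has a replicate error and nothing below was tested. The tables used here hold lists of genes and no expression values, so neither the level of a gene nor the direction of its change can be read from them. The depth of each library is not given in these tables.

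The integrated stress response is the program by which animal cells slow general protein synthesis and switch on a set of repair genes. Kinases that sense misfolded protein in the endoplasmic reticulum (ER), lack of amino acids, lack of heme or double-stranded RNA all phosphorylate the translation factor eIF2α, and the mRNA of the transcription factor ATF4 is then translated more efficiently. ATF4 and its partners switch on genes for amino acid supply, for growth arrest, for recovery of translation and, when stress lasts, for cell death. The unfolded protein response of the ER shares its PERK branch with this program and has further branches through the sensors IRE1 and ATF6.

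ATF4 and its partners of the C/EBP family bind a composite element with the letters TGATGNAA, and ER stress factors bind the ER stress element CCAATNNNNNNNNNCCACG. Both were searched on both strands of the RefSeq promoter windows of GRCh38.p14, which run from 250 bases before to 50 bases after each annotated start. The ATF4-type letters stood in the windows of 3 of the 10 genes, ASNS, ATF3 and CHAC1, against 1217 of 27305 genes with a window (4.46%). The ER stress element stood in the window of 1 of the 10, XBP1, against 25 of 27305 genes (0.0916%). The stretches of 30 bases around these matches are printed to show the letters found in these 4 genes, while the other 6 of the 10 held neither motif. Capitals mark the motif, each stretch is read 5′ to 3′ on the strand that spells it, and the letters of the 2 motifs do not overlap each other in these stretches.
ASNS, chr7:97872458-97872487, minus strand: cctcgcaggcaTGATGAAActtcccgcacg
ATF3, chr1:212565205-212565234, plus strand: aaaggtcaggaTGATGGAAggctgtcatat
CHAC1, chr15:40953251-40953280, minus strand: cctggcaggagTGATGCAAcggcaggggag
XBP1, chr22:28800597-28800626, minus strand: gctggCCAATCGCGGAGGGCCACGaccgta
All 4 stretches lie in front of an annotated start, where the motif's outermost base is 68 bases before the start in ASNS, 191 in ATF3, 209 in CHAC1 and 52 in XBP1. The CHAC1 match is on the strand opposite to the gene, and the other 3 are on the strand of the gene. ASNS, ATF3 and XBP1 each have 2 windows, of which 1 held the motif. The letters were not in the windows of ATF4, DDIT3, PPP1R15A, TRIB3, DDIT4 and SESN2, which says nothing of elements further away.

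In HepG2 all 10 genes were listed, and in Huh7 9 of the 10 were listed, with XBP1 as the exception. XBP1 belongs to the IRE1 branch of the unfolded protein response and not to the PERK branch that is shared with the integrated stress response. The share of all background genes that was listed was 21.6% in B vs. A and 19.7% in D vs. C. The genes listed in both lines were thus 9 of the 10 listed in HepG2 and 9 of the 9 listed in Huh7, whereas 2281 of all 4783 genes listed in HepG2 (47.7%) and of all 4369 listed in Huh7 (52.2%) were in both lists. The 2 comparisons share no library. XBP1 stood in the list of HepG2 and not in that of Huh7, but the difference between the lines was not tested.

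**Figure D1:**
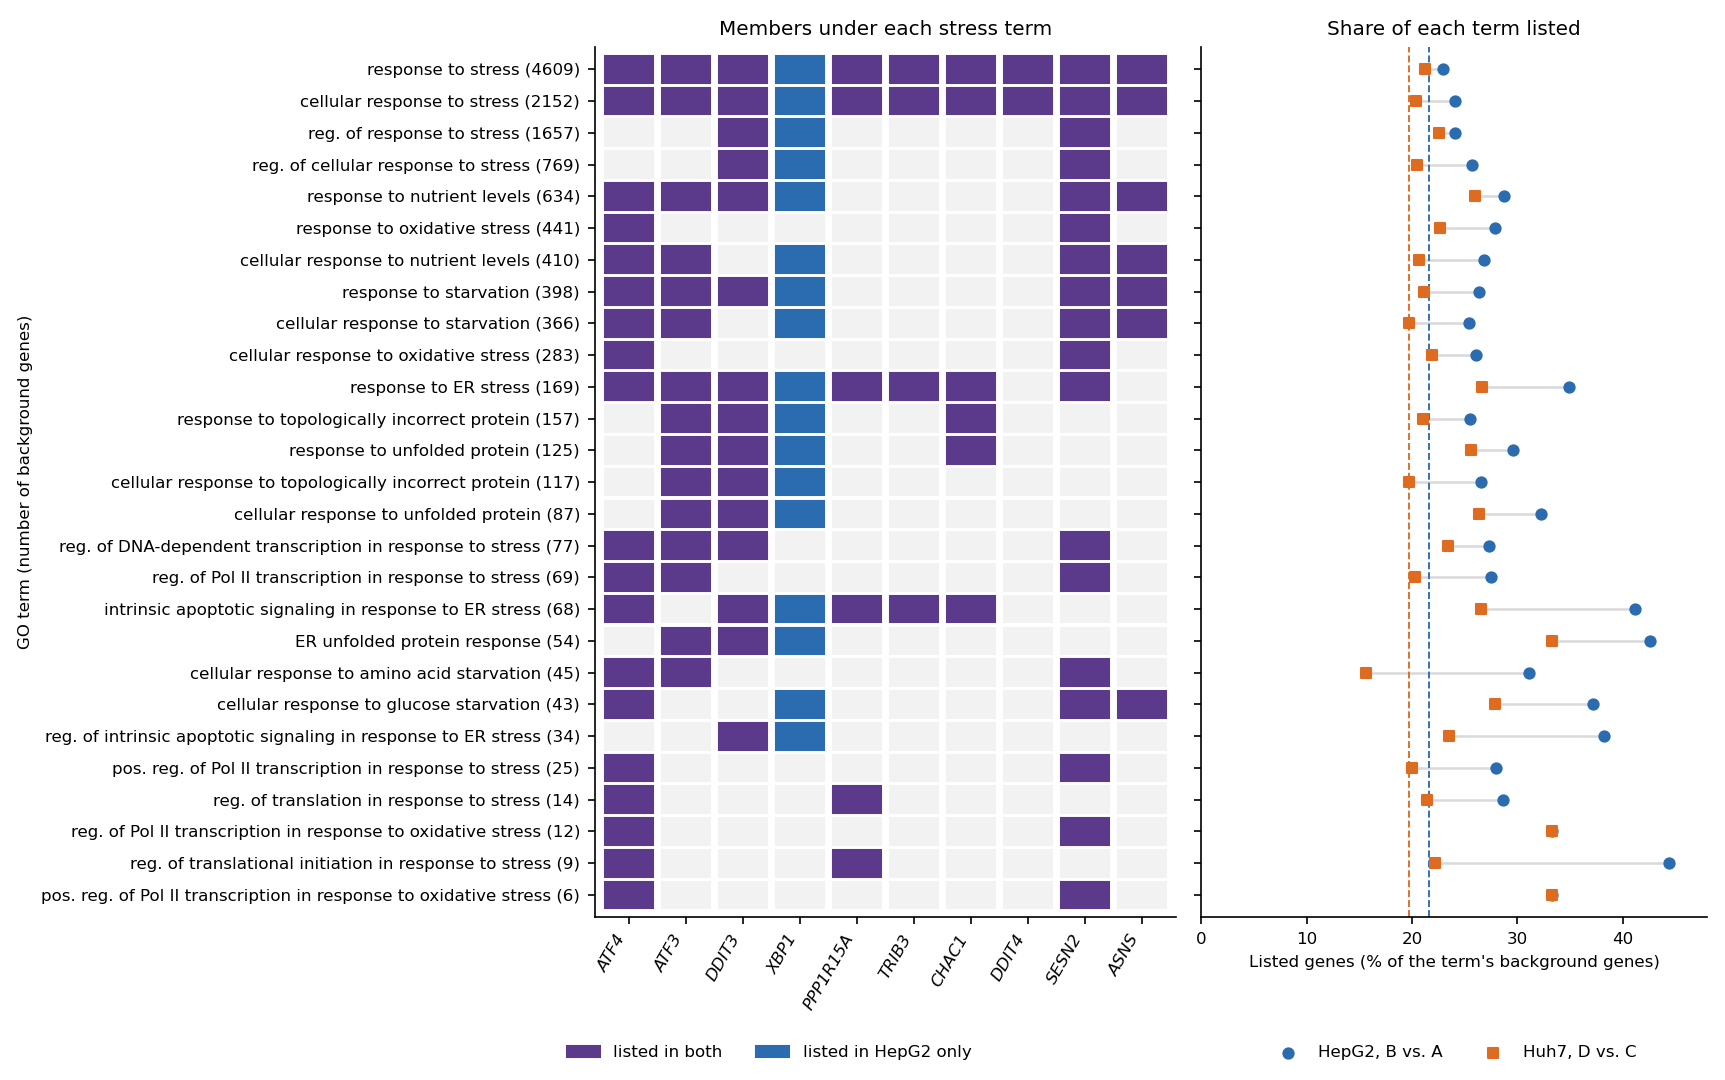
The left panel marks which of the 10 genes (columns) stood under each GO stress term that held at least 2 of them (rows, with the number of background genes in brackets), and the right panel gives the listed genes as a percentage of each term's background genes in HepG2 (circles) and Huh7 (squares). Dashed lines mark 21.6% and 19.7%, the shares over all background genes, and XBP1 is the only column in the color for HepG2 alone.

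ATF4 (ENSG00000128272) is the transcription factor that the pathway is built around. It was listed in both lines and stood under 334 GO terms, 21 of which were stress terms. Stress terms were those whose description named stress, unfolded or topologically incorrect protein, starvation, nutrient levels, EIF2, PERK, IRE1, ATF6 or ER overload. Its stress term with the fewest background genes was negative regulation of translational initiation in response to stress, with 2 of 4 genes listed in HepG2 and 1 of 4 in Huh7. ATF4 was also under 22 KEGG pathways in each line, more than any other of the 10 genes. In both lines it was also the 1 gene of the 1-gene term on positive regulation of transcription in response to an arsenic-containing substance.

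ATF3 (ENSG00000162772), a factor of the same bZIP family that is induced early in many kinds of stress, was listed in both lines under 215 GO terms and 15 stress terms. The smallest of its stress terms was cellular response to amino acid starvation, in which 14 of 45 genes (31.1%) were listed in HepG2 and 7 (15.6%) in Huh7. DDIT3 (ENSG00000175197), which encodes the death-promoting factor CHOP, was listed in both lines under 396 GO terms and 17 stress terms. Its smallest stress term was positive regulation of intrinsic apoptotic signaling in response to ER stress, with 5 of 10 genes listed in HepG2 and 3 of 10 in Huh7.

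XBP1 (ENSG00000100219) encodes the transcription factor of the IRE1 branch, whose mRNA is spliced by IRE1 in the cytoplasm during ER stress. It stood under 503 GO terms in HepG2, the most of the 10 genes, of which 21 were stress terms, and under none in Huh7. Of these 503 terms, 493 were in the table of Huh7 through other genes. The 10 terms that were not each had fewer than 10 background genes, and they included positive regulation of RNA polymerase II transcription involved in the unfolded protein response, which holds 3 background genes. The tables count whole genes, so the spliced and unspliced forms of XBP1 cannot be told apart.

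PPP1R15A (ENSG00000087074) encodes GADD34, which brings a phosphatase to eIF2α and so lets translation resume. It was listed in both lines under 184 GO terms and 8 stress terms. The smallest of these was positive regulation of translational initiation in response to stress, where it was the 1 gene of 3 that was listed in either line. PPP1R15A and ATF4 stood together under regulation of translation in response to stress, in which 4 of 14 genes were listed in HepG2 and 3 of 14 in Huh7.

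TRIB3 (ENSG00000101255), a pseudokinase that feeds back on ATF4 and on AKT, was listed in both lines under 327 GO terms but 4 stress terms. Its smallest term was ubiquitin-protein ligase regulator activity, with 5 of 13 genes listed in HepG2 and 3 of 13 in Huh7. CHAC1 (ENSG00000128965), an enzyme that degrades glutathione, was listed in both lines under 139 GO terms and 6 stress terms. The term with the fewest background genes for CHAC1 was gamma-glutamylcyclotransferase activity, its enzymatic function, with all 4 genes listed in HepG2 and 3 of 4 in Huh7. Neither gene stood under any KEGG pathway in either line.

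DDIT4 (ENSG00000168209), also called REDD1, and SESN2 (ENSG00000130766), a sestrin, restrain the growth kinase mTORC1. DDIT4 was listed in both lines under 215 GO terms, and its 2 stress terms were the 2 most general ones. Its smallest term was negative regulation of glycolysis, with 5 of 12 genes listed in HepG2 and 2 of 12 in Huh7. SESN2 was listed in both lines under 311 GO terms and 21 stress terms, as many as ATF4 in both lines and XBP1 in HepG2. It was the gene listed in both lines under negative regulation of translation involved in the response to ER stress, a term of 2 genes.

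ASNS (ENSG00000070669) encodes asparagine synthetase, a textbook target of ATF4 during amino acid shortage, and was the 1 gene of the term L-asparagine biosynthetic process. It was listed in both lines under 146 GO terms and 7 stress terms. Its smallest stress term was cellular response to glucose starvation, with 16 of 43 genes (37.2%) listed in HepG2 and 12 of 43 (27.9%) in Huh7. For each of the 9 genes listed in both lines, the set of GO terms was identical in the 2 tables, because GO annotation belongs to the gene and not to the cell line. The number of terms of a gene therefore describes how it was annotated and not how it responded.

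The transcripts of the 10 genes were short by their median, though not that of SESN2, and longer genes collect more reads and are called more easily at a given change. Whether length bore on these calls was not tested. The median of the longest annotated transcript was 2138 bases over the 10 genes, against 3157 bases over 19922 protein-coding genes, 3332 over those listed in B vs. A and 3270 over those listed in D vs. C. The shortest was DDIT3 with 1067 bases and the longest was SESN2 with 3453 bases.

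Reads of some of these genes could have been shared with a neighbor or a copy. DDIT3 overlaps MARS1 and MBD6 on the opposite strand, both of which were listed in HepG2 and not in Huh7, where DDIT3 was listed. DDIT3 also overlaps MIR616 and AC022506.1 on its own strand, neither of which was in the mRNA lists. DDIT4 overlaps DDIT4-AS1 on the opposite strand. ASNS overlaps AC005326.1 on the opposite strand and AC079781.5 on its own strand, and none of these 3 was listed. These 3 and MIR616 are not protein-coding, and whether the authors' annotation holds AC022506.1 is not known. Their absence from lists of mRNAs therefore says nothing of shared reads. The library kit kept the strand of the RNA, whereas whether reads were counted by strand is not given in the sources used here. ATF4 and ASNS have 4 annotated pseudogenes each and XBP1 has 1, and how the counting treated reads that match a copy was not tested, so these calls are uncertain to that extent.

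The stress terms that hold these genes were compared between the lines next. The table of HepG2 held 98 stress terms, 40 of which held at least 1 of the 10 genes. The table of Huh7 held 91, of which 36 held at least 1. All of these 36 had to be among the 40, since the genes listed in Huh7 have the same terms in both tables. The terms that held any of the 10 genes in HepG2 alone held only XBP1. The general terms response to stress and cellular response to stress held all 10 genes in HepG2 and 9 in Huh7. Response to stress had 1057 listed genes of 4609 (22.9%) in HepG2 and 978 (21.2%) in Huh7, and cellular response to stress had 518 of 2152 (24.1%) and 438 (20.4%). These shares lay just above the 21.6% and 19.7% of all background genes. Of protein-coding genes, 23.9% were listed in HepG2 and 21.9% in Huh7, and only cellular response to stress in HepG2 lay above these. The same 2 terms were the only stress terms among the 26 GO terms that held all 10 genes in HepG2.

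Response to ER stress held 8 of the 10 genes in HepG2, all except DDIT4 and ASNS, and 7 in Huh7. Of its 169 background genes, 59 (34.9%) were listed in HepG2 and 45 (26.6%) in Huh7. With the 10 genes taken out, 51 of 161 (31.7%) were listed in HepG2 and 38 (23.6%) in Huh7. In all, 36 genes of this term were in both lists, 23 in that of HepG2 only and 9 in that of Huh7 only. The genes listed only in HepG2 included, besides XBP1, the eIF2α kinases EIF2AK3 (PERK) and EIF2AK2 (PKR). They also included the IRE1 paralog ERN2, the IRE1 adaptor TRAF2, the apoptosis effector BAX and the translocon-associated SERP1. The others of these 23 were ALOX15, BCL2L11, CASP4, DAB2IP, ITPR1, LRRK2, MBTPS2, NRBF2, PIK3R1, PIK3R2, RASGRF1, RASGRF2, SIRT1, TMTC3, TTC23L and VAPB. The 9 genes listed only in Huh7 were BHLHA15, CREB3L2, EEF2, HYOU1, P4HB, PARP16, PML, SRPX and THBS1, where HYOU1 is an ER chaperone and P4HB a protein disulfide isomerase.

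Among the stress terms with at least 10 background genes that held at least 2 of the 10 genes, the largest shares in HepG2 were those of the ER unfolded protein response and of intrinsic apoptotic signaling in response to ER stress. Intrinsic apoptotic signaling in response to ER stress held ATF4, DDIT3, XBP1, PPP1R15A, TRIB3 and CHAC1 in HepG2 and the same genes without XBP1 in Huh7. It had 28 of 68 genes (41.2%) listed in HepG2 and 18 (26.5%) in Huh7, with 17 in both. Without the 10 genes these became 22 of 62 (35.5%) and 13 (21.0%). Its regulation, a term that held DDIT3 and XBP1, had 13 of 34 genes (38.2%) listed in HepG2 and 8 (23.5%) in Huh7.

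Among the terms on unfolded protein, ATF3, DDIT3 and XBP1 stood under the ER unfolded protein response, and CHAC1 joined them under response to unfolded protein and response to topologically incorrect protein. Unfolded protein binding, a term of chaperones, held none of the 10 genes and had 17 of 146 genes (11.6%) listed in HepG2 and 16 (11.0%) in Huh7, below the shares of all background genes. The ER unfolded protein response had 23 of 54 genes (42.6%) listed in HepG2 and 18 (33.3%) in Huh7. Response to unfolded protein had 37 of 125 (29.6%) and 32 (25.6%), and response to topologically incorrect protein had 40 of 157 (25.5%) and 33 (21.0%). Positive regulation of the ER unfolded protein response, which held XBP1 in HepG2, had 4 of 5 genes listed in HepG2 and 1 of 5 in Huh7.

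Response to starvation and response to nutrient levels held ATF4, ATF3, DDIT3, SESN2 and ASNS in both lines and XBP1 in HepG2. Response to starvation had 105 of 398 genes (26.4%) listed in HepG2 and 84 (21.1%) in Huh7. Response to nutrient levels had 182 of 634 (28.7%) and 165 (26.0%). Cellular response to amino acid starvation, which held ATF4, ATF3 and SESN2 in both lines, had the widest gap in share between the lines among the starvation and nutrient terms that held any of the 10 genes. Without these 3 genes it had 11 of 42 (26.2%) listed in HepG2 and 4 (9.52%) in Huh7, so that in Huh7 3 of its 7 listed genes were among the 10. Cellular response to nitrogen starvation, which held none of the 10, had 5 of 12 genes listed in HepG2 and 3 of 12 in Huh7.

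ATF4 and SESN2 also stood under some of the terms on oxidative stress, the kind of damage that SDT is meant to cause through reactive oxygen. Other terms on oxidative stress, such as those on its intrinsic apoptotic signaling, held none of the 10 genes. Response to oxidative stress had 123 of 441 genes (27.9%) listed in HepG2 and 100 (22.7%) in Huh7. Regulation of RNA polymerase II transcription in response to oxidative stress had 4 of 12 genes listed in each line, 3 of them in both, and was the only one of the 30 stress terms with at least 10 background genes and any of the 10 genes in which the lines had equal counts.

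Across the 30 stress terms that held any of the 10 genes and had at least 10 background genes, the median share listed was 28.3% in HepG2 (range 22.9 to 50.0%) and 22.6% in Huh7 (15.6 to 33.3%). More genes were listed in HepG2 in 29 of the 30 terms and equally many in the other term. Among the 29 was negative regulation of intrinsic apoptotic signaling in response to ER stress (7 of 22 genes in HepG2, 5 in Huh7). That term was among the 30 only because XBP1 was listed in HepG2. Over all 8107 GO terms with at least 10 background genes and a listed gene in each line, the medians were 25.6% and 23.1%. More genes were listed in HepG2 in 4832 of these terms, equally many in 935 and more in Huh7 in 2340. In the 37 stress terms that held none of the 10 genes the medians were 28.6% and 23.1%, with more listed in HepG2 in 19, equally many in 6 and more in Huh7 in 12. These 37 include the 13 terms on stress fibers or stress-activated kinase cascades, which only the word stress brought in. They also include a term on transcription in response to heat stress that had no listed gene in Huh7 and entered as 0%. Without the 10 genes, the medians of the 30 terms were 26.1% and 21.0%, and the order of the lines held in the same number of terms. In HepG2 this median was thus near that of all terms, and in Huh7 it was lower. GO terms share genes and are not independent, and many of these 30 terms are nested in each other.

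Split by kind, the 11 ER stress terms had medians of 34.9% in HepG2 and 26.4% in Huh7. The 8 starvation and nutrient terms had 28.1% and 21.8%, and the 11 other stress terms had 27.3% and 21.4%. With the 10 genes taken out, a setting added after seeing the data, the medians were 30.0% and 22.2% for the ER stress terms, 26.6% and 21.1% for the starvation and nutrient terms and 23.7% and 20.0% for the others. The ER stress median then stood above the 25.6% of all terms in HepG2 and below the 23.1% of all terms in Huh7, and the differences between kinds were not tested.

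**Figure D2:**
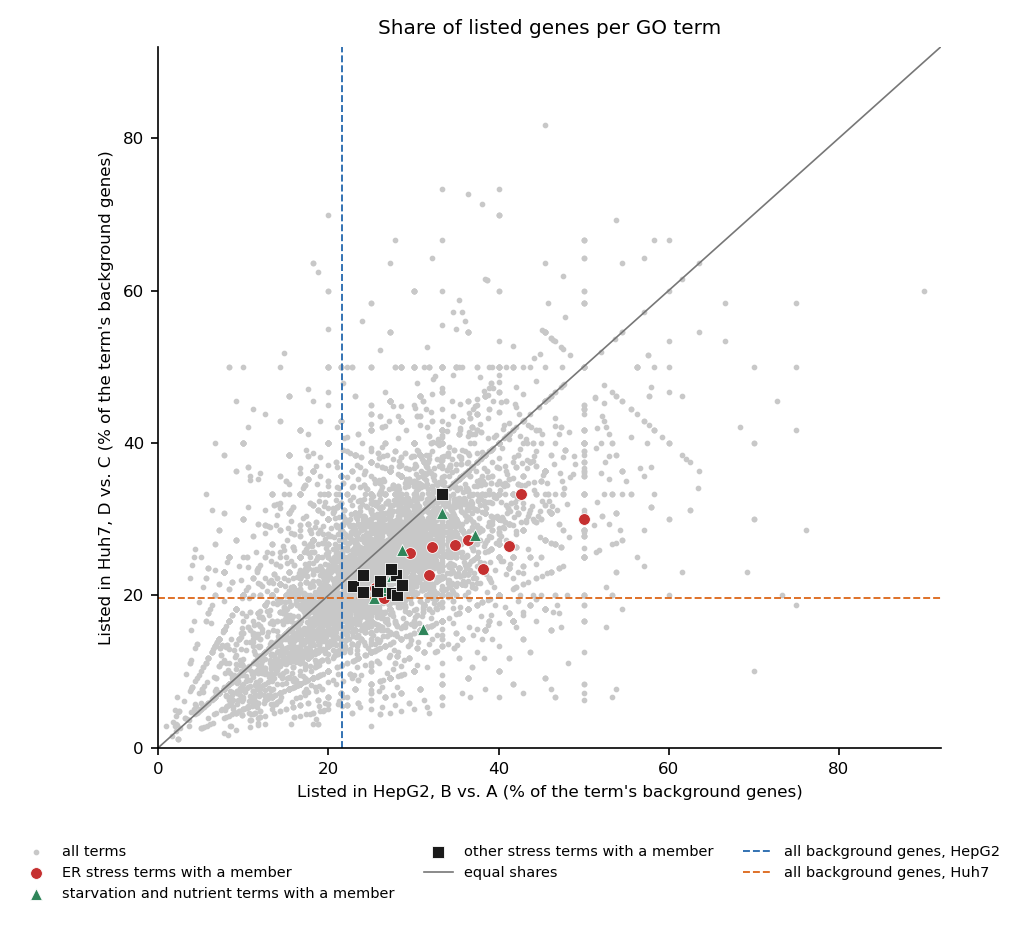
Each point is a GO term with at least 10 background genes and a listed gene in each line, placed by the percentage of its background genes listed in HepG2 (horizontal axis) and in Huh7 (vertical axis). Stress terms that held any of the 10 genes are larger symbols by kind. Of these 30 terms, 29 lie below the line of equal shares and 1 on it, and dashed lines mark 21.6% and 19.7%.

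Of the 10 genes, 8 stood under KEGG pathways in HepG2 and 7 in Huh7. In each line 28 pathways held at least 1 of the 10 genes, of 279 pathways in the table of HepG2 and 280 in that of Huh7. Protein processing in the endoplasmic reticulum held ATF4, DDIT3, PPP1R15A and XBP1 in HepG2 and the same genes without XBP1 in Huh7. It had 35 of 168 genes (20.8%) listed in HepG2 and 29 (17.3%) in Huh7, in both cases below the median of 26.1% over pathways of at least 10 background genes. This was lower than the share of the GO term response to ER stress, and the KEGG pathway also contains the machinery of protein folding, export and degradation.

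Non-alcoholic fatty liver disease, which held ATF4, DDIT3 and XBP1 in HepG2, had 39 of 151 genes (25.8%) listed there and 20 (13.2%) in Huh7, where it held ATF4 and DDIT3. The p53 signaling pathway, which held SESN2, had 27 of 68 (39.7%) and 18 (26.5%). Alanine, aspartate and glutamate metabolism, which held ASNS, had 17 of 35 (48.6%) and 14 of 35. The mTOR signaling pathway, which held DDIT4, had 18 of 60 and 16 of 60. Of the 28 pathways, 17 had more genes listed in HepG2, 1 had equally many and 10 had more in Huh7. The same split over all pathways was not counted. ATF4 stood under 22 of the 28, many of them not about stress. These counts are therefore not comparable with those of the 30 stress terms of GO, which were chosen by their wording. Among the 28 pathways the widest gap toward Huh7 was in long-term potentiation, which held ATF4 and had 13 of 67 genes (19.4%) listed in HepG2 and 23 (34.3%) in Huh7.

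The other genes of the pathway were taken from a list of 98 genes in 12 roles, which includes the 10. In HepG2 53 of the 98 (54.1%) were listed and in Huh7 41 (41.8%), with 38 in both, 15 in HepG2 only, 3 in Huh7 only and 42 in neither. Without the 10 genes, 43 of 88 (48.9%) were listed in HepG2, 32 (36.4%) in Huh7 and 29 (33.0%) in both, against 21.6%, 19.7% and 10.3% of all background genes. The list was assembled with earlier results of these data known, and it is no independent evidence on the 10.

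**Figure D3:**
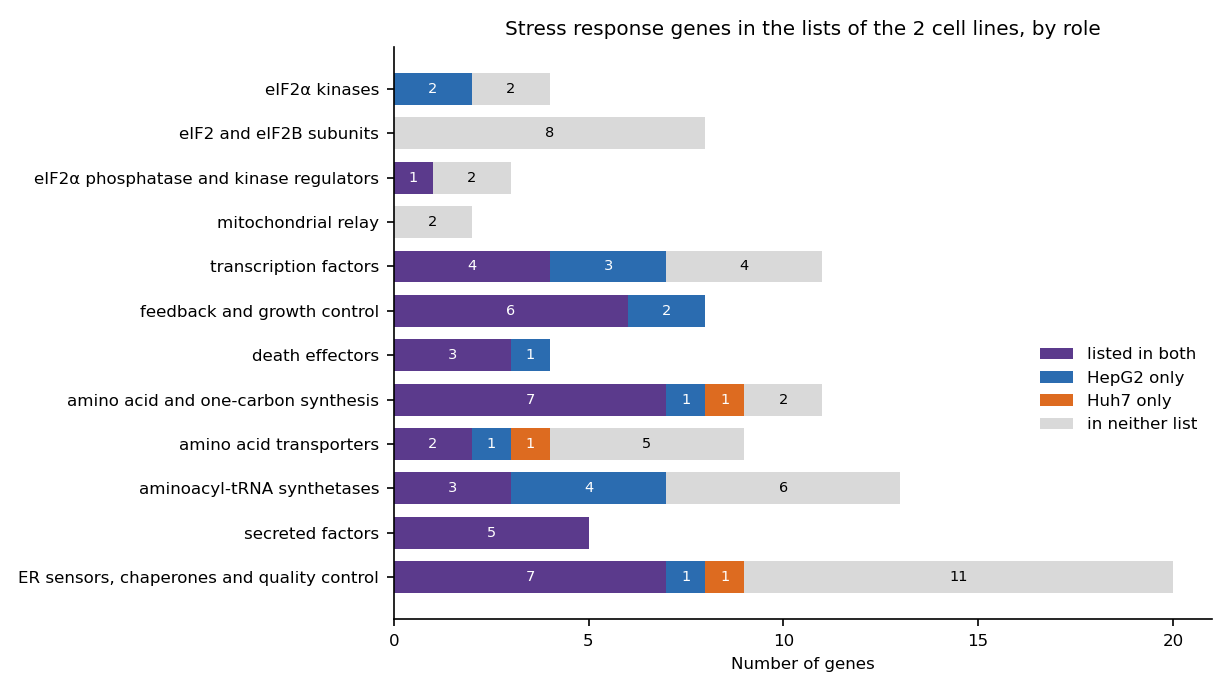
Stacked bars count the genes of the wider list in each of 12 roles (number of genes on the horizontal axis) by whether they were listed in both lines, in HepG2 only, in Huh7 only or in neither. All 5 secreted factors were listed in both lines, and none of the 8 subunits of eIF2 and eIF2B was listed in either. Of all background genes, 21.6% were listed in HepG2, 19.7% in Huh7 and 10.3% in both, and the list was assembled with earlier results known.

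In the 4 roles grouped as upstream of ATF4, 3 of 17 genes (17.6%) were listed in HepG2 and 1 (5.88%) in Huh7. The shares of all background genes were 21.6% and 19.7%. PPP1R15A was among the 3 in HepG2 and was the 1 in Huh7, and it also belongs to the recovery of translation that follows ATF4. Of the 4 eIF2α kinases, EIF2AK3 (PERK, the ER stress kinase) and EIF2AK2 (PKR, the kinase for double-stranded RNA) were listed in HepG2 only, and EIF2AK1 and EIF2AK4, the kinases for heme and amino acid lack, were in neither list. None of the 8 subunits of eIF2 and of its exchange factor eIF2B was listed. PPP1R15A was the only listed gene of the 3 regulators of eIF2α phosphatase and kinases, with PPP1R15B and DNAJC3 in neither list. OMA1 and DELE1, which relay mitochondrial stress to the pathway, were also in neither list. Phosphorylation of eIF2α and translation of ATF4 mRNA are not seen in lists of mRNAs.

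Among the 11 transcription factors, ATF4, ATF3, DDIT3 and CEBPB, a bZIP factor that pairs with these, were in both lists. XBP1, CEBPG, another partner of ATF4, and NUPR1, a stress-induced chromatin protein, were listed in HepG2 only. ATF5, ATF6, ATF6B and CREB3L3 were in neither list. Of all background genes, 21.6% were listed in HepG2, 19.7% in Huh7 and 10.3% in both. ATF4, ATF3, DDIT3, XBP1, TRIB3, CHAC1, DDIT4 and SESN2 are among the 10 genes, so the counts of their roles partly repeat those of the 10. All 8 genes of feedback and growth control were listed in HepG2, and 6 of them in Huh7. The 6 in both were TRIB3, CHAC1, DDIT4 and SESN2 with the TRIB3 paralogs TRIB1 and TRIB2, whereas the SESN2 paralogs SESN1 and SESN3 were listed in HepG2 only. Of the death effectors, TNFRSF10B (the receptor DR5), PMAIP1 (NOXA) and BBC3 (PUMA) were in both lists and BCL2L11 (BIM) in that of HepG2 only.

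Genes of amino acid supply were listed in part, where 10.3% of all background genes were in both lists. Beside ASNS, the serine synthesis enzymes PSAT1 and PHGDH, the mitochondrial folate enzyme MTHFD2, the cysteine synthesis enzymes CTH and CBS and the transaminase GPT2 were in both lists. PSPH was listed in HepG2 only and PYCR1 in Huh7 only, and SHMT2 and ALDH18A1 were in neither list. Of 9 amino acid transporters, SLC3A2 and SLC1A5 were in both lists, SLC43A1 in that of HepG2 only and SLC7A11, the cystine carrier, in that of Huh7 only. Of 13 aminoacyl-tRNA synthetases, CARS1, GARS1 and SARS1 were in both lists, and AARS1, MARS1 (which overlaps DDIT3), WARS1 and YARS1 in that of HepG2 only.

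The 5 secreted factors FGF21, GDF15, STC2, VEGFA and ADM2 were all in both lists, against 10.3% of all background genes. FGF21 and GDF15 are hormones that report stress in liver and other tissues to the rest of the body. Of 20 ER sensors, chaperones and quality control genes, 7 were in both lists, namely ERN1 (IRE1α), HSPA5 (the chaperone BiP), DNAJB9, HERPUD1, ERO1B, SYVN1 and DERL3. MANF was listed in HepG2 only and HYOU1 in Huh7 only. The other 11, among them HSP90B1, CALR, CANX, PDIA4, PDIA6, EDEM1 and SEL1L, were in neither list. In each line 8 of the 20 genes of this role were listed. For feedback and growth control it was 8 of 8 genes in HepG2 and 6 of 8 in Huh7. For amino acid and one-carbon synthesis it was 8 of 11 genes in each line. The shares of all background genes were 21.6% in HepG2 and 19.7% in Huh7, and the differences between roles were not tested.

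The motifs were next counted over the 83 genes of the wider list that have a promoter window. The ATF4-type letters stood in 18 of the 83, made up of 9 of 33 genes listed in both lines, 3 of 12 listed in HepG2 only, 0 of 1 listed in Huh7 only and 6 of 37 in neither list. The ER stress element stood in 8 of the 83, made up of 2 of 33 listed in both, XBP1 among the 12 listed in HepG2 only, and 5 of 37 in neither. Genes that were not listed thus held both motifs too. Stretches of 2 further genes with the ATF4-type letters in both or 1 of the lists, of 1 unlisted gene with it, and of 1 listed and 1 unlisted gene with the ER stress element are shown for comparison with those of ASNS, ATF3, CHAC1 and XBP1, and capitals mark the motif.
FGF21 (both lists), chr19:48755459-48755488, minus strand: ctcctcctcccTGATGCAAtcctggtgttt
CEBPG (HepG2 only), chr19:33374060-33374089, plus strand: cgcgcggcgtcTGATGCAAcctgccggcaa
PPP1R15B (neither list), chr1:204412026-204412055, minus strand: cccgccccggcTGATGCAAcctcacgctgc
HSPA5 (both lists), chr9:125241385-125241414, minus strand: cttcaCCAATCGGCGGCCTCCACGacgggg
PDIA6 (neither list), chr2:10812847-10812876, minus strand: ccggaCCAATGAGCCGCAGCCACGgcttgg
The outermost base of the motif lay 54 bases before the annotated start in FGF21, 42 in CEBPG, 227 in PPP1R15B, 66 in HSPA5 and 86 in PDIA6. CHAC1, FGF21, CEBPG and PPP1R15B spell the same 8 letters, whereas ASNS and ATF3 differ from them at the free position of the motif. A match of letters is a description of the sequence, and binding was not measured.

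**Figure D4:**
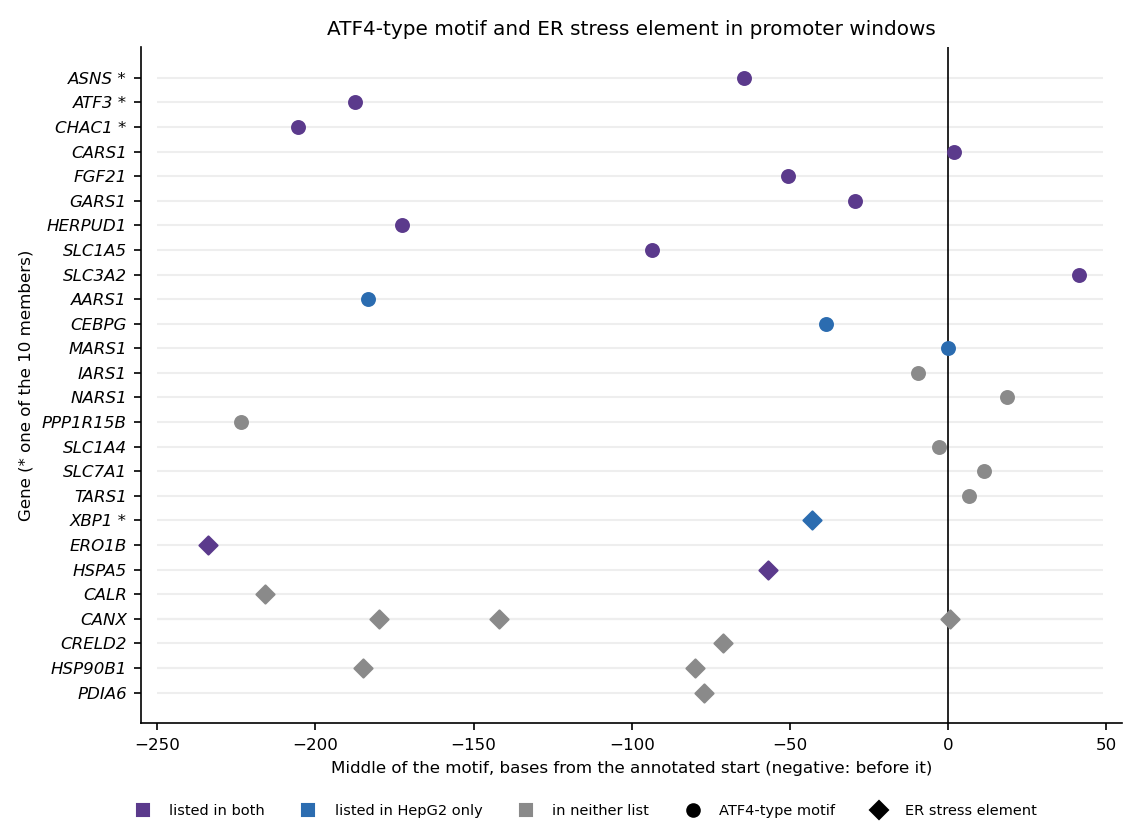
Symbols give the middle of each ATF4-type motif (circles) and ER stress element (diamonds) in bases from the annotated start (horizontal axis, negative values before it) for each gene of the wider list with a match (rows, asterisks for the 10 genes), colored by the list that held the gene. Genes of both lists, of HepG2 only and of neither list appear under each motif, and the matches of ASNS, ATF3, CHAC1 and XBP1 lie before the start.

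Likeness of annotation was measured as the terms that 2 genes share divided by the terms that either has, over the 2280 other genes listed in both lines. The gene most like ATF4 was ATF3, with 162 shared of 387 terms (0.419), and the gene most like DDIT3 was also ATF3, with 182 of 429 (0.424). ATF3 itself was most like the homeobox factor BARX2 (134 of 234, 0.573). TRIB3 was most like its paralog TRIB2 (179 of 343, 0.522), and CHAC1 was most like GGCT, another enzyme of the glutathione cycle (71 of 155, 0.458). SESN2 was most like TRIB3 (166 of 472, 0.352), DDIT4 like the mTORC1 substrate AKT1S1 (101 of 253, 0.399), ASNS like the glutathione synthesis subunit GCLM (88 of 268, 0.328) and PPP1R15A like NIBAN1 (86 of 201, 0.428).

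Among pairs of the 10 genes, the largest values were those of ATF3 and DDIT3 (0.424), ATF4 and ATF3 (0.419) and ATF4 and DDIT3 (0.396). The smallest was that of PPP1R15A and ASNS, with 40 shared of 290 terms (0.138). These values describe shared annotation, which is the same in both lines, and are no measure of shared response.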

How the data were processed

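Strand-specific libraries were made from rRNA-depleted total RNA of HepG2 and Huh7 cells before and after SDT, 1 per group for 4 groups, and were sequenced. Groups follow the sample labels. The submitters' processing notes name Bowtie2 2.2.8, HISAT2, StringTie 1.3.1 and Cuffdiff 2.1.1. For the calls, the paper's methods name Cuffdiff, whereas its results section names edgeR. The authors' build and annotation are not given in the sources used here. The authors tested GO terms with GOseq and KEGG pathways with KOBAS and deposited, for each comparison and each term or pathway, the number of listed genes, the number of background genes, the listed identifiers, and a p-value and corrected p-value. These p-values are the authors' own comparisons and were not used. The deposited values used here are counts of genes, not of reads, so they give no depth per library and no interval was computed. Tables of lncRNAs and circRNAs were not analysed here.

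The gene list of each comparison held every identifier found under any GO term of the 3 branches. Symbols were found for 4755 of 4783 genes in B vs. A and for 4346 of 4369 in D vs. C. Transcript lengths, gene types, overlaps and pseudogenes came from GENCODE 29 by identifier, and promoter sequences from RefSeq on GRCh38.p14 by symbol, with which all 10 genes and 83 of the 98 of the wider list matched. No coordinate of the authors' files was used. Terms entered a median only with at least 10 background genes. Tables were read with Python 3.11.15, tested on a simulated table, and drawn with matplotlib 3.10.9. No statistical test was run.

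The 10 genes, the wider list and the rules were chosen with earlier results of these data known. The text names the 10 genes, the genes of the wider list by role, stress terms that held at least 2 of the 10 genes with the smallest term of each gene, and for each of the 9 genes listed in both lines the gene of the most similar terms. Other terms, the KEGG pathways and the unlisted genes of the wider list were named after their values were seen. So were the genes of response to ER stress that were listed only in HepG2 or only in Huh7. Alternatives were another source of the list, another rule for stress terms, another denominator and, chosen after seeing the data, leaving out the 10 genes.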

Additional observations from a re-analysis of the deposited data

How the results depend on the processing

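Over 13 results, 31 values recomputed under alternatives stayed within 1.5 times the reported value and 3 did not. The 3 were the numbers of stress terms holding any of the 10 genes, which fell from 40 to 23 in B vs. A, from 36 to 22 in D vs. C and from 36 to 22 in both when descriptions had to hold the word stress, because this rule drops the terms on unfolded protein, starvation and nutrient levels. With KEGG pathways in place of GO terms, 8 of the 10 genes were listed in HepG2 and 7 in Huh7, since TRIB3 and CHAC1 are in no pathway of either table. With protein-coding genes as the denominator, the shares of all genes listed were 23.9% and 21.9%. Of the stress terms, 13 in each table concern stress fibers or stress-activated kinase cascades, and none of these held any of the 10 genes. No paired analysis was possible because each group has 1 library and no result comes from a test. For the same reason no replicate could be left out, and the lines and their libraries cannot be told apart in any difference between the 2 lists.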
